A study of Rattus norvegicus with 14 samples.

Results

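Mesenchymal stromal cells are the adherent, fibroblast-like cells of bone marrow and other tissues that are given by vein as a cell therapy, and in cell culture they are recognised by a panel of surface proteins. The 10 genes described here are the surface markers Eng, Nt5e, Thy1, Itgb1 and Alcam, the mesenchymal transcription factors Prrx1 and Twist1, and the niche genes Lepr, Cxcl12 and Postn. They were chosen by name, as probe sets to which the platform annotation gives 1 gene symbol and no other. Of the 10 genes, 9 had such a probe set, 1 each, out of 22093 genes measured in this way. Lepr, the leptin receptor that marks stromal cells around marrow sinusoids, is annotated only together with a neighbouring symbol and is not analysed here. The question was whether motor cortex of rats infused with MSC held more of these transcripts than motor cortex of rats infused with vehicle, as a trace of the infused cells.

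The samples were 14 arrays of motor cortex RNA from male rats with a spinal cord injury, 7 from rats infused with MSC and 7 from rats infused with vehicle. All rats of both groups carried the injury and were injected every day with cyclosporine A, an immunosuppressant. The infusion was given into the femoral vein 24 hours after injury, and cortex was taken at day 3 after it. The labels name neither the strain and age of the rats nor the source of the cells, so whether the rat probe sets match the transcripts of the infused cells is also not known. The labels write MSC without spelling it out, and it is taken here in its usual sense, mesenchymal stem or stromal cells. For MSC replicate 7, the free-text label says vehicle while title and treatment say MSC. It was kept as MSC, and the estimates with it counted as vehicle are given for the genes whose sign they turn or whose estimate they move by over 1.5 times.

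None of these genes belongs to stromal cells alone, which sets what a trace could look like in cortex. Eng (endoglin, CD105) is a TGF-beta co-receptor of endothelium, and Nt5e (CD73) is the enzyme that turns extracellular AMP into adenosine. Thy1 (CD90) is abundant on neurons, Itgb1 (CD29) is the shared beta subunit of many matrix receptors, and Alcam (CD166) is an adhesion molecule of growing axons and vessels. Prrx1 and Twist1 mark embryonic and adult connective tissue, Cxcl12 is a chemokine that holds blood-forming cells in marrow and is made by brain vessels and neurons, and Postn (periostin) is a matrix protein of connective tissue. In whole-tissue RNA, more cells of a type and more RNA per cell cannot be told apart.

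No array stood out as a whole, with array medians of 5.77 to 5.90 on the log2 scale and correlations between arrays of 0.990 to 0.997 across probe sets. But 4 arrays carried raised markers of other tissue, by lists named for meninges, choroid plexus and striatum. Where these transcripts came from was not tested. The meningeal fibroblast and pia list had a mean of 8.42 in MSC replicate 2 and of 8.31 in vehicle replicate 2, against 7.20 to 7.75 on the other 12 arrays. The choroid plexus list stood at 9.02 in MSC replicate 4 and 9.14 in vehicle replicate 2, against 6.11 to 6.64 elsewhere, and Ttr, the transthyretin made by choroid plexus, at 16.91 and 16.81 against 6.63 to 10.01. Striatal neuron markers averaged 7.80 in MSC replicate 6, against 6.98 to 7.24 on the other 13 arrays. Markers of cortical excitatory neurons were high throughout, with list means of 12.74 to 13.28, and Slc17a7, the vesicular glutamate transporter of cortical neurons, with means of 15.80 ± 0.18 (MSC) and 15.63 ± 0.19 (vehicle; SD, n = 7 each). Replicates 6 and 7 of both groups had lower spike-in controls, with dap at 7.45 to 8.12 and at 8.35 or more elsewhere. The labels give no batch, and differences within replicates 1 to 5 and within replicates 6 and 7 are given beside the pooled ones.

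Expression of the 9 genes overlapped between the groups, and 0 of 9 passed an adjusted p of 0.05 in limma. Over all 68842 tested probe sets 0 passed as well, a background of 0%. None of the 9 had an unadjusted p below 0.05 in limma, where 3.41% of all probe sets had one (1% higher and 2.41% lower in the MSC group), and 0 had an exact permutation p below 0.05. In 0 of 9 genes did all arrays of one group lie above those of the other, against 0.032% of all probe sets. The mean was higher in the MSC group for 5 genes and lower for 4, while 42% of all probe sets and 47.4% of those with 1 symbol had a higher mean in that group. The median difference over the 9 genes was 0.038 on the log2 scale, beside -0.015 over all tested probe sets. Without MSC replicate 7 the number of genes with a higher mean was 3 and the median was -0.020, and with that array counted as vehicle they were 3 and -0.047. Without the 4 arrays with raised markers of other tissue, an alternative chosen after seeing the data, they were 5 and 0.036. The 5 were not the same genes, since Eng turned positive (0.036) and Nt5e negative (-0.071). MSC replicate 2 is among these arrays because of fibroblast genes, so leaving it out could also take out part of a trace of infused cells.

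**Figure D1:**
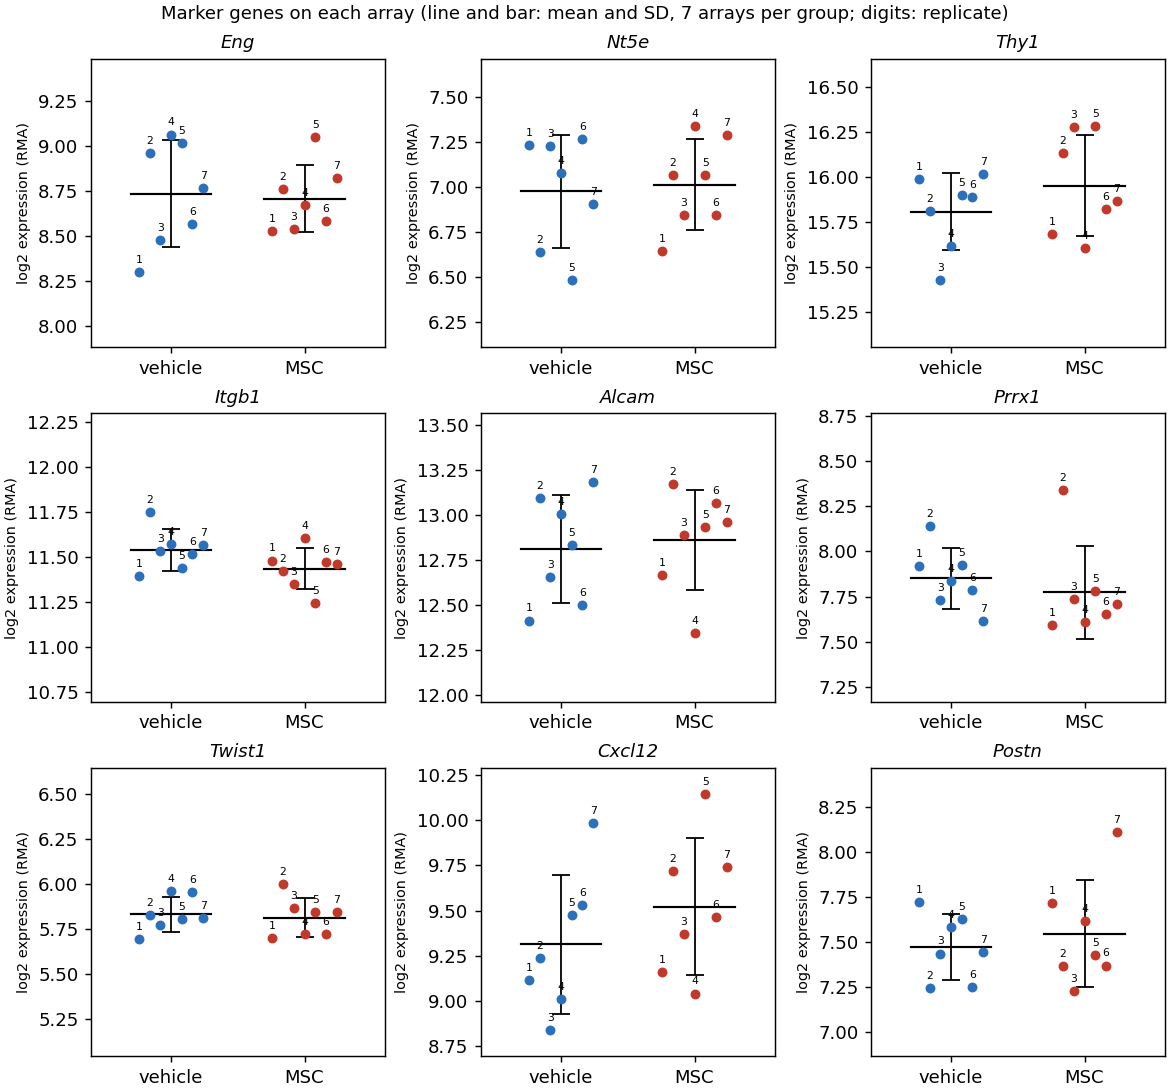
Expression of the 9 genes on each array. Each panel has the group on the x axis and log2 expression (RMA) on the y axis, with 1.6 log2 units from bottom to top, points for single arrays numbered by replicate, and a line and bar for the mean and SD of 7 arrays. The groups overlap in every panel, and MSC replicate 2 stands at 8.34 in Prrx1 and MSC replicate 7 at 8.11 in Postn.

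The intervals of the pooled fit limit the net rise of each transcript, not the share that infused cells could add to resident expression. They take all replicates together. Estimates were larger within replicates 1 to 5 for Thy1 (0.25 ± 0.16, SE) and Cxcl12 (0.35 ± 0.20). For Postn the estimate was larger within replicates 6 and 7 (0.39 ± 0.24). The 95% interval of the difference lay within 1.5-fold in either direction for 8 of 9 genes, all except Cxcl12, and within 2-fold for all 9. Over all tested probe sets the share within 1.5-fold was 95.6%, and over those with 1 symbol it was 97.7%. The upper end of the interval, as MSC over vehicle, was 1.02-fold for Itgb1, 1.08-fold for Twist1, 1.11-fold for Prrx1 and 1.17-fold for Eng. It was 1.26-fold for Nt5e and Postn, 1.27-fold for Alcam, 1.32-fold for Thy1 and 1.52-fold for Cxcl12. The median half-width over the 9 genes was 0.26 on the log2 scale, beside 0.15 over probe sets with 1 symbol. RMA pulls the differences of dim probe sets towards 0, which bears most on Twist1.

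**Figure D2:**
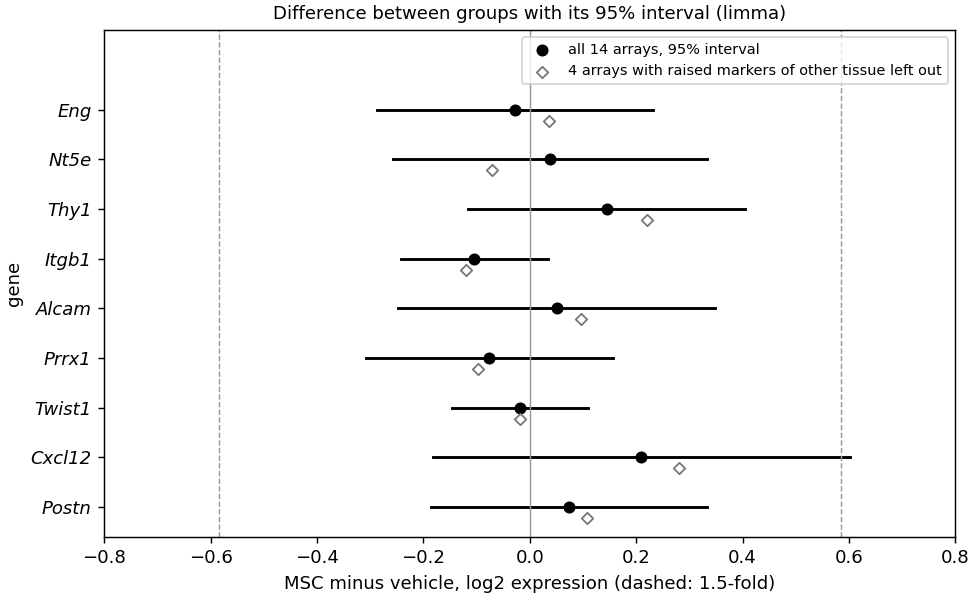
Difference between groups for the 9 genes. The x axis is MSC minus vehicle in log2 expression and the y axis names the gene, with filled points and bars for the estimate and its 95% interval in limma over 14 arrays, open diamonds for the estimate without the 4 arrays with raised markers of other tissue, and dashed lines at 1.5-fold. All 9 intervals cross 0, and that of Cxcl12 alone crosses 1.5-fold.

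Among the surface markers, Eng ran from 8.52 to 9.05 in MSC arrays with a median of 8.67, and from 8.30 to 9.06 in vehicle arrays with a median of 8.76. Every MSC value lay inside the vehicle range. The means were 8.70 ± 0.19 and 8.73 ± 0.29 (SD, n = 7 each), a difference of -0.028 ± 0.12 (SE, exact permutation p = 0.832, two-sided; adjusted p = 0.9999 in limma). The difference was -0.054 ± 0.16 within replicates 1 to 5 and 0.036 ± 0.14 within replicates 6 and 7. Its sign turned when MSC replicate 1 or vehicle replicates 2, 4 or 5 were left out one at a time, and it was 0.036 without the 4 arrays with raised markers of other tissue. With MSC replicate 7 counted as vehicle it was -0.057.

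Nt5e, whose product makes adenosine at the cell surface, ran from 6.64 to 7.34 in MSC arrays (median 7.07) and from 6.48 to 7.27 in vehicle arrays (median 7.08). The medians were nearly the same, and MSC replicates 4 and 7 lay above the highest vehicle array. The difference was 0.038 ± 0.14 (SE, n = 7 each, exact permutation p = 0.801, two-sided; adjusted p = 0.9999 in limma). It was 0.060 ± 0.17 within replicates 1 to 5 and -0.019 ± 0.20 within replicates 6 and 7. Its sign also rested on single arrays: it was negative without MSC replicate 4 or 7 or without vehicle replicate 2 or 5, and -0.071 without the 4 arrays with raised markers of other tissue. With MSC replicate 7 counted as vehicle it was -0.048.

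Thy1, a glycoprotein anchored in the membrane of neurons as well as stromal cells, ran from 15.61 to 16.28 in MSC arrays (median 15.87) and from 15.43 to 16.02 in vehicle arrays (median 15.89). MSC replicates 2, 3 and 5 lay above every vehicle array, while the medians were in the opposite order to the means. The means were 15.95 ± 0.28 and 15.81 ± 0.21 (SD), a difference of 0.14 ± 0.12 (SE, n = 7 each, exact permutation p = 0.292, two-sided; adjusted p = 0.9999 in limma). It was 0.25 ± 0.16 within replicates 1 to 5 and -0.11 ± 0.11 within replicates 6 and 7. Leaving out 1 array gave 0.082 (vehicle replicate 3) to 0.20 (MSC replicate 4). Values this high are near the bright end of the deposited scale, where its linearity is not known.

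Itgb1 pairs with many alpha subunits to bind laminin, collagen and fibronectin, and had the smallest unadjusted p of the 9. It ran from 11.24 to 11.61 in MSC arrays (median 11.46) and from 11.39 to 11.75 in vehicle arrays (median 11.53). MSC replicates 3 and 5 lay below every vehicle array, and 1 of 7 MSC arrays lay above the vehicle mean. The difference was -0.10 ± 0.065 (SE, n = 7 each, exact permutation p = 0.113, two-sided; adjusted p = 0.9999 in limma). It was -0.12 ± 0.088 within replicates 1 to 5 and -0.074 ± 0.11 within replicates 6 and 7. The estimate stayed negative in all 14 fits that left out 1 array, from -0.13 (MSC replicate 4) to -0.069 (vehicle replicate 2).

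Alcam, an immunoglobulin-type adhesion molecule that binds itself and CD6, ran from 12.35 to 13.17 in MSC arrays (median 12.93) and from 12.41 to 13.18 in vehicle arrays (median 12.83). Both groups covered nearly the same range, with MSC replicate 4 lowest of all. The difference was 0.050 ± 0.14 (SE, n = 7 each, exact permutation p = 0.748, two-sided; adjusted p = 0.9999 in limma). It was 0.00070 ± 0.16 within replicates 1 to 5 and 0.17 ± 0.23 within replicates 6 and 7. It turned negative without MSC replicate 2 or without vehicle replicate 1 or 6, and was 0.015 with MSC replicate 7 counted as vehicle.

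Prrx1, a homeobox factor of mesenchyme, ran from 7.59 to 8.34 in MSC arrays (median 7.71) and from 7.61 to 8.14 in vehicle arrays (median 7.84). Replicate 2 was the highest array of both groups, and MSC replicates 1 and 4 lay just below the lowest vehicle array. The difference was -0.076 ± 0.11 (SE, n = 7 each, exact permutation p = 0.536, two-sided; adjusted p = 0.9999 in limma), with 1 of 7 MSC arrays above the vehicle mean. It was -0.099 ± 0.14 within replicates 1 to 5 and -0.020 ± 0.12 within replicates 6 and 7. Leaving out MSC replicate 2 gave -0.17, and leaving out vehicle replicate 2 gave -0.028. With MSC replicate 7 counted as vehicle it was -0.047.

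Twist1, a basic helix-loop-helix factor of mesenchyme, was near the array medians, and only 6 of 14 arrays had it above their own median. It ran from 5.70 to 5.997 in MSC arrays (median 5.84) and from 5.69 to 5.96 in vehicle arrays (median 5.81). MSC replicate 2 was the highest and vehicle replicate 1 the lowest, so neither group stood above the other. The difference was -0.018 ± 0.060 (SE, n = 7 each, exact permutation p = 0.737, two-sided; adjusted p = 0.9999 in limma). It was 0.014 ± 0.076 within replicates 1 to 5 and -0.099 ± 0.12 within replicates 6 and 7, and its sign turned without MSC replicate 1 or without vehicle replicate 4 or 6.

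Cxcl12, the ligand of the receptors Cxcr4 and Ackr3, varied most from array to array and had the largest estimate of the 9. It ran from 9.04 to 10.15 in MSC arrays (median 9.47) and from 8.84 to 9.99 in vehicle arrays (median 9.24). MSC replicate 5 was the highest array and vehicle replicate 7 the next, so the top of both groups overlapped. The means were 9.52 ± 0.38 and 9.31 ± 0.39 (SD), a difference of 0.21 ± 0.18 (SE, n = 7 each, exact permutation p = 0.322, two-sided; adjusted p = 0.9999 in limma), or 1.16-fold with a 95% interval of 0.881 to 1.52. It was 0.35 ± 0.20 within replicates 1 to 5 and -0.15 ± 0.19 within replicates 6 and 7, so the estimates in the 2 sets had opposite signs, and this difference was not tested. It was 0.10 without MSC replicate 5, 0.32 without vehicle replicate 7 and 0.12 with MSC replicate 7 counted as vehicle.

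Postn, a matrix protein that binds integrins, ran from 7.23 to 8.11 in MSC arrays (median 7.43) and from 7.25 to 7.72 in vehicle arrays (median 7.45). MSC replicate 7, the array whose description names vehicle, was the only MSC array above the highest vehicle array. The difference was 0.074 ± 0.12 (SE, n = 7 each, exact permutation p = 0.608, two-sided; adjusted p = 0.9999 in limma). It was -0.053 ± 0.11 within replicates 1 to 5 and 0.39 ± 0.24 within replicates 6 and 7, which hold that array. Without MSC replicate 7 it was -0.020, and with that array counted as vehicle it was -0.099.

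**Figure D3:**
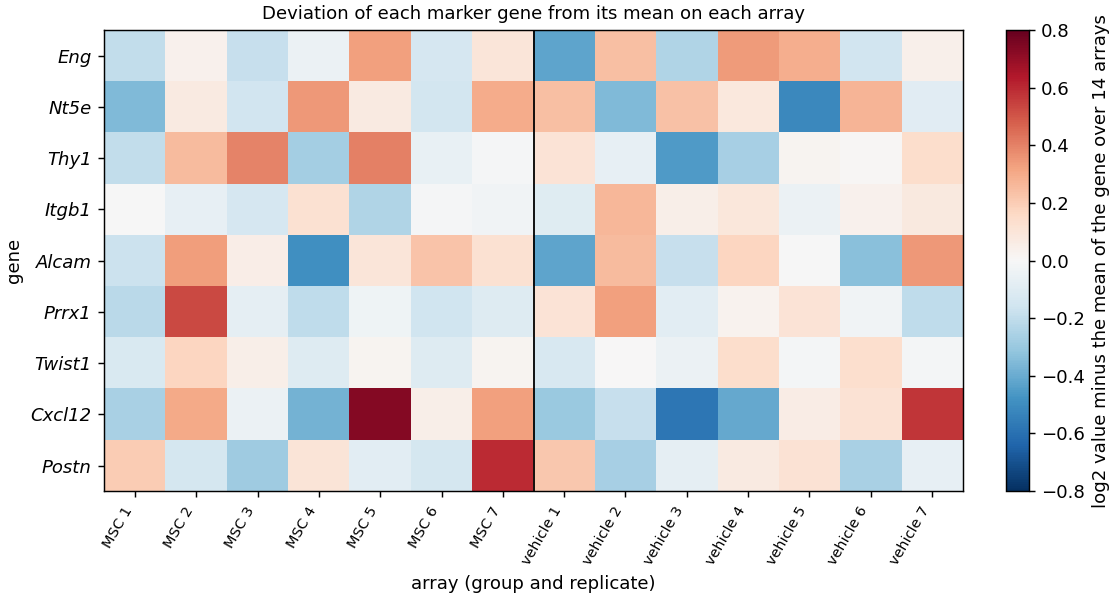
Deviation of each gene from its own mean on each array. Columns are arrays by group and replicate, rows are genes, and colour gives the log2 value minus the mean over 14 arrays, from blue (lower) to red (higher). No column is red throughout, and the 2 darkest cells, Cxcl12 in MSC replicate 5 (10.15) and Postn in MSC replicate 7 (8.11), lie on different arrays.

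On no array did all 9 genes stand above their own means. The number above the mean ran from 1 (MSC replicate 1) to 7 (MSC replicate 2) of 9 in MSC arrays and from 2 (vehicle replicate 3) to 7 (vehicle replicate 4) in vehicle arrays, so the ranges overlapped. MSC replicate 5 was highest for Cxcl12 and Thy1 and lowest for Itgb1. MSC replicate 2 was highest for Prrx1 and Twist1, and MSC replicate 4 was highest for Nt5e and lowest for Alcam. Of 36 pairs of genes across the 14 arrays, 0 had an adjusted p below 0.05 for Pearson's r and 2 for Spearman's rho. Cxcl12 and Thy1 rose and fell together, with r = 0.75 (permutation p = 0.0020, adjusted p = 0.071) and rho = 0.75 (permutation p = 0.0027, adjusted p = 0.048). Without the 2 arrays farthest from the median of Cxcl12 r was 0.55, and within replicates 1 to 5 it was 0.82. Replicates 6 and 7 hold 4 arrays, too few for a correlation. Itgb1 and Thy1 ran opposite, with r = -0.65 (permutation p = 0.011, adjusted p = 0.19) and rho = -0.76 (permutation p = 0.0024, adjusted p = 0.048). Without the 2 arrays farthest from the median of Itgb1 r was -0.71, and within replicates 1 to 5 it was also -0.71.

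Levels of the mesenchymal genes were compared with those of resident cell types over 54 pairs of a gene and a list. An adjusted p below 0.05 was found for 3 pairs with Pearson's r (Prrx1 with the meningeal and the mural list, Itgb1 with choroid plexus) and for 5 with Spearman's rho (these and Prrx1 with endothelium and Thy1 with microglia). For rho, all but Prrx1 with the mural list had an adjusted p of 0.0499. It comes from random permutations, so another draw could move these pairs past 0.05. Prrx1 was highest on the 2 arrays with raised meningeal markers, at 8.34 in MSC replicate 2 and 8.14 in vehicle replicate 2 against 7.59 to 7.92 on the other 12. On the same 2 arrays Col1a1, a collagen chain of fibroblasts, stood at 8.38 and 8.44 against 7.08 to 7.51, and Col1a2 at 9.58 and 9.18 against 7.42 to 8.31. Prrx1 followed the meningeal list with r = 0.86 (permutation p = 0.0012, adjusted p = 0.022) and rho = 0.72 (permutation p = 0.0046, adjusted p = 0.0499). Without these 2 arrays r was 0.32, so that relation rests on them. Its relation to the pericyte and smooth muscle list, mural cells of vessels, was r = 0.85 (permutation p = 0.0001, adjusted p = 0.0043) and rho = 0.89 (permutation p = 0.0001, adjusted p = 0.0038). It was r = 0.75 without MSC replicates 2 and 4, the 2 arrays farthest from the median of that list, and 0.84 within replicates 1 to 5. Vehicle replicate 2 was kept in both, so this relation was not checked without the 2 arrays with raised meningeal markers. With the meningeal list mean as a covariate, chosen after seeing the data, the Prrx1 difference between groups was -0.12 ± 0.060 (SE, adjusted p = 0.99998 in limma). Since that list holds fibroblast genes, the covariate could also take out part of a trace of infused cells.

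**Figure D4:**
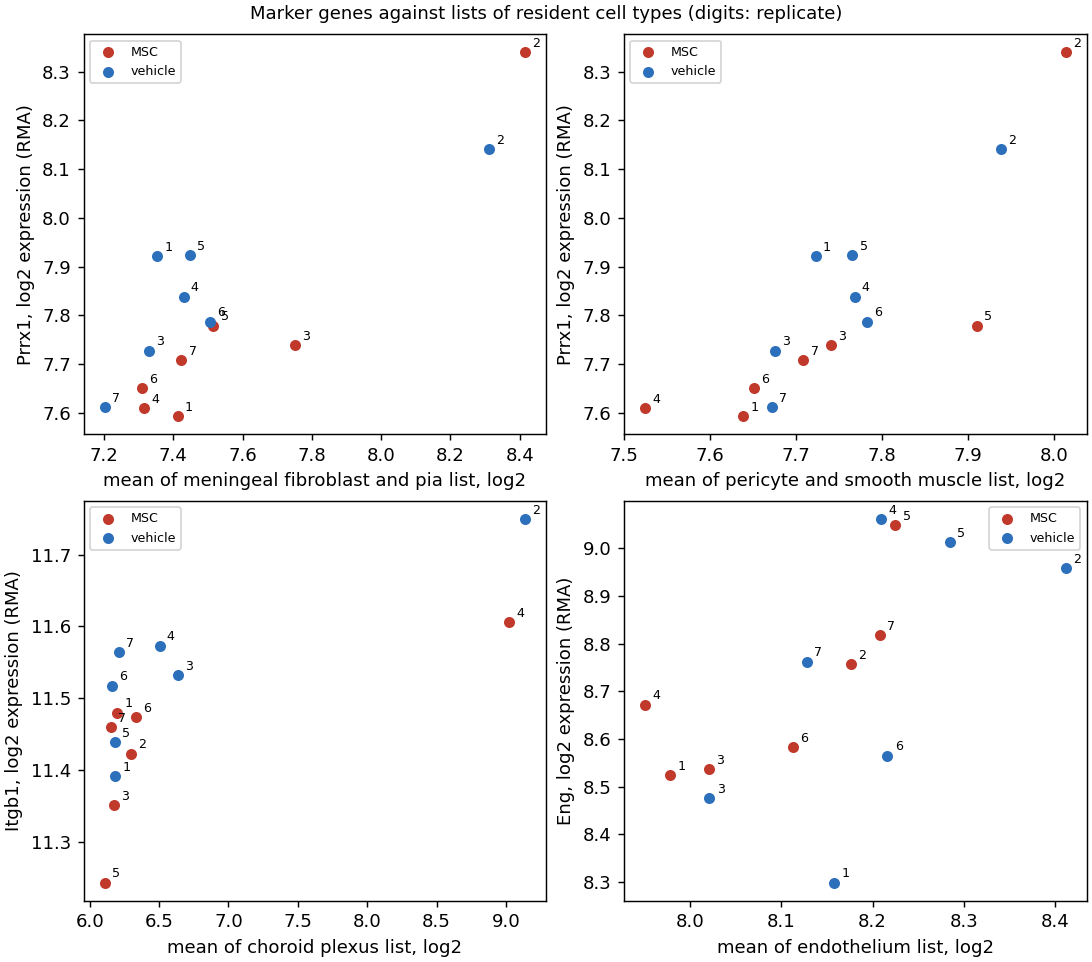
Marker genes against means of resident cell type lists. Each point is 1 array numbered by replicate and coloured by group, with the list mean in log2 on the x axis and the gene's log2 expression (RMA) on the y axis. Prrx1 is highest on replicate 2 of both groups, which also have the highest meningeal means (8.42 and 8.31), and the choroid plexus panel splits into 2 arrays above 9 and 12 below 7.

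Itgb1 was highest on the 2 arrays with raised choroid plexus markers, at 11.75 in vehicle replicate 2 and 11.61 in MSC replicate 4, against 11.24 to 11.57 on the other 12. Those 2 arrays form a cluster of their own on that list, and r within the other 12 was 0.56. Prrx1 and the endothelium list had r = 0.61 (permutation p = 0.020, adjusted p = 0.13) and rho = 0.73 (permutation p = 0.0039, adjusted p = 0.0499), with r = 0.42 without the 2 arrays farthest from the list's median and 0.69 within replicates 1 to 5. Eng and the endothelium list had r = 0.62 (permutation p = 0.018, adjusted p = 0.13) and rho = 0.67 (permutation p = 0.011, adjusted p = 0.069), with r = 0.65 without the 2 arrays farthest from the list's median and 0.66 within replicates 1 to 5. Thy1 had its highest coefficients with the microglia list, with r = 0.65 (permutation p = 0.012, adjusted p = 0.13) and rho = 0.73 (permutation p = 0.0042, adjusted p = 0.0499), r = 0.72 without the 2 arrays farthest from the list's median, and 0.67 within replicates 1 to 5. Postn did not follow the meningeal list, with r = -0.42 (permutation p = 0.13, adjusted p = 0.41) and rho = -0.51 (permutation p = 0.067, adjusted p = 0.28), and r = -0.29 without replicate 2 of both groups and -0.70 within replicates 1 to 5. Twist1 and the pericyte and smooth muscle list had r = 0.66 (permutation p = 0.0097, adjusted p = 0.13) and rho = 0.71 (permutation p = 0.0058, adjusted p = 0.053). Without MSC replicates 2 and 4 that r was 0.45, and within replicates 1 to 5 it was 0.70. With the meningeal list Twist1 had r = 0.52 (permutation p = 0.052, adjusted p = 0.26) and rho = 0.67 (permutation p = 0.0096, adjusted p = 0.066). The part of tissue makeup in the group differences was not tested.

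Among 14204 other genes at or above the lowest array median, those nearest to Prrx1 across the 14 arrays after subtracting group means were Bgn (r = 0.94), the matrix proteoglycan biglycan, and Tagln (r = 0.94), an actin-binding protein of smooth muscle. Both also stand in the meningeal or mural lists. Nearest to Eng were Fgf9, a growth factor (0.92), and Cast, the calpain inhibitor (0.91). Nearest to Thy1 were Rhbdd2 (0.97) and Lclat1 (0.93), and to Cxcl12 Shc3, a signalling adaptor of neurons (0.93), and Wsb2 (0.93). Nearest to Itgb1 were Dse, an enzyme of dermatan sulfate (0.89), and Fam133bl1 (0.88), to Alcam Pid1 (0.90) and the kinase Rps6ka3 (0.87), and to Nt5e Nbea (0.88) and Mir628 (0.88). Nearest to Twist1 were Tmem37 (0.84) and Rpa3l1 (0.80), and to Postn Ufsp2 (0.89) and Dnajc14 (0.82). These are the highest of 14204 coefficients over 14 arrays and are given as a description.

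Promoter sequence is shown for Prrx1, whose level followed the vessel wall list, and for Postn, a matrix gene of connective tissue. The 250 bases before the RefSeq start on GRCr8 are given 5′ to 3′ on the gene's strand, with capitals marking the E-box CANNTG, the kind of site that Twist1 and related factors bind.
Prrx1, chr13:78204074-78204323, minus strand: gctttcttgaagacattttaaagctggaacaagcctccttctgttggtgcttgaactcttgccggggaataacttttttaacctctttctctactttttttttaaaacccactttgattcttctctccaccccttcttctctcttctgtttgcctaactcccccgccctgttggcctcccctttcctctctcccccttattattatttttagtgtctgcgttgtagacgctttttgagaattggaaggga
Postn, chr2:140677811-140678060, plus strand: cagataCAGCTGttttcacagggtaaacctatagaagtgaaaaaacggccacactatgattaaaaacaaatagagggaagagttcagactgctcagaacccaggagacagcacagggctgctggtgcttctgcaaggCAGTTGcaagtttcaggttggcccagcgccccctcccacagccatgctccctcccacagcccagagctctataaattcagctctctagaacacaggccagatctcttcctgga
Postn held 2 E-boxes and Prrx1 held 0. Of the 9 of 10 genes with an entry, 4 held at least 1 (Cxcl12, Eng, Lepr and Postn), while 65.5% of all 33469 promoters of this length did. The motif TAATTA, a core of homeobox factor sites, was in 0 of these 9 and in 4.9% of all promoters. Both motifs read the same on either strand.

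No gene in lists related to the markers, as partners or as other cell markers, passed the threshold either. In 8 related lists, chosen with earlier results of these data known, 100 of 102 distinct genes were measured, and 0 passed an adjusted p of 0.05 in limma. Of the 100, 56 had a higher and 44 a lower mean in the MSC group, with a median difference of 0.0048, and 3 had an unadjusted p below 0.05, which is 3% against 3.41% of all probe sets. Of 30 other stromal cell markers 18 had higher means (median 0.021). Their smallest p values were those of Cd248, the surface protein endosialin (-0.17 ± 0.083, SE), and Kitlg, the stem cell factor of the marrow niche (-0.21 ± 0.12). Both were lower in the MSC group. Kitlg was lowest in MSC replicate 4, at 8.68 against 9.36 on the next MSC array. Of 7 measured blood-cell markers that stromal cells lack, 4 had higher means (median 0.0045), with Cd34, also an endothelial protein, at -0.40 ± 0.17 and Itgam, an integrin of myeloid cells, at 0.17 ± 0.084.

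Around each marker, receptors and partners gave estimates in both directions. Among those named here, Itga8, P2ry12 and Adora1 had estimates larger in size than the 0.21 of Cxcl12, the largest of the 9 markers. Of 15 endoglin and TGF-beta receptor genes 7 had higher means (median -0.0021), with Acvrl1, the type I receptor that endoglin assists, at -0.017 ± 0.065 (SE), and the signal transducers Smad1 at -0.093 ± 0.050 and Smad2 at -0.075 ± 0.056. Of 13 genes of extracellular ATP and adenosine 10 had higher means (median 0.040). Entpd1, which makes the AMP that Nt5e uses, was at 0.040 ± 0.18, and the adenosine receptor Adora1 at 0.24 ± 0.11. The ADP receptor P2ry12 of microglia was at -0.27 ± 0.094 (unadjusted p = 0.010, adjusted p = 0.9999 in limma). For P2ry12, 0 of 7 MSC arrays lay above the vehicle mean. Of 18 integrin partners of Itgb1, 9 had higher means (median 0.00025). The alpha subunits Itga8 (0.33 ± 0.11) and Itga7 (0.078 ± 0.062) had the smallest p, and Itgav (-0.076 ± 0.090) and Itga6 (-0.038 ± 0.10) had estimates below 0.

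In the Cxcl12 list, 1 of 4 genes had a higher mean (median -0.042). Its receptor Cxcr4 averaged 5.72 ± 0.11 over MSC and 5.66 ± 0.17 over vehicle arrays (SD), close to the array medians, its scavenger receptor Ackr3 differed by -0.037 ± 0.065 (SE) and Dpp4, a protease that clips it, by -0.047 ± 0.066. Cxcr4 was above the array's own median on 2 of 14 arrays and Dpp4 on 7. In the leptin receptor list 3 of 6 had higher means (median 0.017), with the phosphatase Ptpn2 at -0.11 ± 0.064 and the hormone Lep, above the array's own median on 0 of 14 arrays, at 0.10 ± 0.074. Of 10 periostin partners 6 had higher means (median 0.047), with the procollagen protease Bmp1 at 0.11 ± 0.067 and the integrin Itgb3 at -0.097 ± 0.078. None of these genes passed the adjustment over all probe sets.

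Resident cell types that also express the markers had no gene past the adjusted threshold in limma either. The meningeal list had 15 of 20 higher means (median 0.072), and its array means ran from 7.31 to 8.42 in MSC and from 7.20 to 8.31 in vehicle arrays. Its smallest p values were those of Igfbp2, a binding protein of insulin-like growth factors (0.27 ± 0.27, SE), and Slc22a6, an organic anion transporter (0.15 ± 0.19). Of 13 pericyte and smooth muscle genes 5 were higher (median -0.013), with Kcnj8, a potassium channel of pericytes, at -0.17 ± 0.077, Rgs5, a regulator of G protein signalling in pericytes, at -0.16 ± 0.13 and Pdgfrb, the receptor that marks pericytes and stromal cells alike, at -0.043 ± 0.10. Of 15 endothelial genes 3 were higher and 12 lower (median -0.061). An unadjusted p below 0.05 in limma was found for 3 of the 15, all lower, where 2.41% of all probe sets were lower with such a p. The pericyte and smooth muscle list had 1 such gene, also lower, and the meningeal list had 0. The smallest p values of the endothelial list were those of Cldn5, a tight junction protein (-0.30 ± 0.093), and Cd93, a surface glycoprotein of endothelium (-0.22 ± 0.076). Eng, itself an endothelial gene, had an estimate of -0.028 beside these. Of 11 cortical excitatory neuron genes 10 were higher and 1 lower (median 0.087), and 0 had an unadjusted p below 0.05 in limma. With that list Cxcl12 had r = 0.51 (permutation p = 0.062, adjusted p = 0.26). It was 0.29 without vehicle replicate 2 and MSC replicate 5, the 2 arrays farthest from the list's median. Thy1 had r = 0.25 with the same list (permutation p = 0.38, adjusted p = 0.63), and -0.031 without the same 2 arrays. Whether neurons have a part in the estimates of these 2 markers was not tested.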

How the data were processed

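The values deposited by the authors are log2 expression; the submitters' processing notes name RMA and Affymetrix Expression Console, and their versions, settings and genome build are not stated there. RMA subtracts a background, equalises probe distributions between arrays and gives 1 log2 value per probe set, which pulls dim probe sets' differences towards 0. Of 70580 probe sets, 1738 controls were left out (31 AFFX, 155 ERCC and 1552 RG), and 68842 were tested. A gene is represented by its probe set with the highest mean. Among the named list genes, Cd248 had 3 probe sets and Entpd1 and Col1a2 had 2 each, and their other probe sets are not given. All arrays entered 1 fit of MSC minus vehicle without covariates (lmFit and eBayes of limma 3.58.1, run in R 4.3.3), p adjusted by Benjamini-Hochberg across the 68842 and called below 0.05. The fit was tested on simulated data. Single values had an exact permutation test over 3432 splits, whose smallest p is 0.00058. Correlations used 100000 permutations, two-sided, where 0.0001 stands for values near the smallest they can give, with adjustment over 54 gene and list pairs or 36 gene pairs.

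The members, lists and tests were chosen with earlier results of these data known. Named beside the members are the 2 genes nearest to each, the 2 genes with the smallest p of each list whose single genes are described, and fixed partners. The choroid plexus, striatal and microglia lists serve only as tissue checks. The excitatory neuron list is a tissue check whose group difference is given as counts. Of 237 entries in 19 lists, 227 were measured; the inhibitory neuron, astrocyte, oligodendrocyte and blood lists are not described. The labels do not say whether the arrays are from 14 separate rats, so p-values reflect only the spread among these samples, part of which may be technical. The number of arrays limits the precision. The labels name no pairing, and the replicate numbers were not treated as pairs. Deviations of same-numbered arrays correlated at -0.21 to 0.33. Arrays of different number were not compared in this way, so the range cannot exclude a pairing.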

Additional observations from a re-analysis of the deposited data

Results flagged for a closer look

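In groups of 7 arrays, a highest or lowest array was marked when its gap to the next array, as a share of the group's range, exceeded Dixon's 95% limit. Over the 9 markers, the other genes whose values or differences between groups are given, and the means of the lists described, 23 such arrays were found in 112 groups. Chance marks about 1 group in 20 where groups are independent. These are not, since genes such as Col1a1, Col1a2, Igfbp2 and Ttr also stand in the lists, so the count cannot be set against that share. Of the 9 markers, Prrx1 was marked, at 8.34 in MSC replicate 2. Vehicle replicate 2 was marked for the meningeal list (8.31), the pericyte and smooth muscle list (7.94), the choroid plexus list (9.14), Col1a1 (8.44), Col1a2 (9.18), Igfbp2 (9.40), the periostin partners list (8.22), Ttr (16.81) and Dpp4 (6.12). MSC replicate 2 was also marked for the meningeal list (8.42), the periostin partners list (8.195), Col1a1 (8.38) and Col1a2 (9.58). MSC replicate 4 was marked for the choroid plexus list (9.02), Ttr (16.91) and, as low, Kitlg (8.68). MSC replicate 6 was marked for the striatal neuron list (7.80). Single marks were Adora1 in MSC replicate 5 (9.45) and, as low, in vehicle replicate 4 (8.28), Cldn5 as low in MSC replicate 3 (8.09) and vehicle replicate 4 (8.30), and Lep in vehicle replicate 6 (5.69).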

How the results depend on the processing

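Under each alternative run, 0 probe sets and 0 of the 9 markers passed an adjusted p of 0.05. The alternatives were repeated quantile normalization, median centring, dim probe sets left out (35457 kept, all 9 markers among them), RG controls kept, trend and robust settings, array weights, the replicate block, a batch term, MSC replicate 7 counted as vehicle, each array left out, an exact permutation test in place of limma, and, chosen after seeing the data, 4 arrays left out and a meningeal covariate. Averaging several probe sets per gene was not run, since each marker had 1. The exact permutation test's smallest p of 0.00058 leaves it little room to pass an adjustment over 68842 probe sets, so its count of 0 says nothing on stability. With the replicate number as a block the median difference stays 0.038 by construction, since each number has 1 array per group, so the block can move only the SE and p-values. The SE fell from 0.18 to 0.12 for Cxcl12 (unadjusted p = 0.10 in limma), from 0.12 to 0.077 for Eng and from 0.11 to 0.073 for Prrx1. It fell less for Itgb1, Alcam and Postn, and rose for Nt5e, Thy1 and Twist1. The number with a higher mean was 3 with MSC replicate 7 counted as vehicle, and ran from 3 to 7 with 1 array left out, while the median ran from -0.020 to 0.055 and was negative without MSC replicate 2, 4 or 7 or vehicle replicate 1. The cause was not tested. In all, 5 settings leave the single-gene estimates as they are. Under the 20 that can move them, 161 of 180 estimates kept the sign of the reported one. Thy1, Itgb1, Prrx1 and Cxcl12 kept theirs under all 20. Of these 20, 14 leave out 1 array and share the other arrays with the reported fit. The fits within replicates 6 and 7 are not among them, and there Thy1 (-0.11 ± 0.11, SE) and Cxcl12 (-0.15 ± 0.19) were negative. Signal close to the array medians limits what can be seen for Twist1.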
